A study of Mus musculus with 8 samples.

Results

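The 9 genes described here, Zrsr2, Rnpc3, Snrnp25, Snrnp35, Snrnp48, Pdcd7, Zmat5, Zcrb1 and Scnm1, encode proteins of the minor spliceosome. They were chosen by name, as genes known for their part in this machine, out of 55291 genes in the deposited count tables. Earlier results of these data were known when the choice was made. All 9 were among the 16371 genes that had enough reads to be tested. RNA was measured in 8 libraries of mouse embryonic stem cells, which the sample labels call E14 while the growth protocol mentions R1. One line, DHX35-dTAG, carries the FKBP12 F36V degron on endogenous DHX35, a spliceosomal RNA helicase. The other, GPATCH1-dTAG, carries it on endogenous GPATCH1, a G-patch protein that partners DHX35. Cells of either line were kept for 4 h in DMSO, the solvent, or in 200 nM dTAG-13, which recruits a ubiquitin ligase to the degron. This makes 4 groups of 2 libraries. All 4 groups carry a tagged protein, no untagged cells treated with dTAG-13 were analysed here, and the labels name no clones. The labels do not say that the 2 libraries of a group came from separate cultures, so the p-values measure only the spread between these libraries, which may be technical.

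Most introns are removed by the major spliceosome, whose U1 and U2 snRNPs recognise the 5′ splice site and the branch site. A small class of introns, called U12-type, is removed by the minor spliceosome. There U11 and U12 snRNAs do this work as a preassembled di-snRNP, and U4atac and U6atac replace U4 and U6. Snrnp25, Snrnp35, Snrnp48, Pdcd7, Rnpc3, Zmat5 and Zcrb1 encode proteins of the U11/U12 di-snRNP, Zrsr2 recognises the 3′ splice site of U12-type introns, and Scnm1 encodes a zinc finger protein of the activated minor spliceosome. Loss of these proteins is known to leave U12-type introns in mRNA, and these introns sit in genes of the cell cycle, signalling and DNA repair.

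The 2 snRNAs read the intron by base pairing, and their first 30 bases are shown because they hold the letters that pair. Capitals mark the longest run that can pair with a U12-type 5′ splice site word (ATATCCTT or GTATCCTT) for U11 and with the branch site word TTCCTTAAC for U12. Both were read from GENCODE M21 transcripts on GRCm38, U11 (Rnu11) at chr4:132270184-132270213 on the minus strand and U12 (Rnu12) at chr15:83149644-83149673 on the plus strand.
U11: aaaAAGGgcttctgtcgtgagtggcacacg
U12: atgccttaaacttatgagTAAGGAAaataa

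Rnpc3 and Snrnp48 are themselves known to carry a pair of U12-type 5′ splice site words in a row, an element that binds U11 snRNP and adjusts splicing of the host gene. A search of the transcripts found this pair, shown in capitals, in both. A match was ATATCCTT or GTATCCTT followed within 12 bases by ATATCCT or GTATCCT, on the transcript strand only. In Rnpc3 it lay at chr3:113607238-113607256 (minus strand), in the last exon and 3′ UTR of 3 of its 4 protein-coding transcripts. In Snrnp48 it lay at chr13:38214668-38214692 (plus strand), in intron 4 of the 8 introns of the protein-coding transcripts. It was read from another annotated transcript, whose sequence includes this stretch.
Rnpc3: GTATCCTTtcttGTATCCT
Snrnp48: GTATCCTTtttgcaaatgATATCCT
Of 55341 annotated genes with transcript sequence, 10 (0.0181%) held such a pair and 3417 (6.17%) held at least 1 of the 8-base words. Among the 9 minor spliceosome protein genes only Rnpc3 and Snrnp48 held either in annotated transcripts. This is a description of the letters, and introns that no transcript retains were not searched.

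Total counts lay between 12014203 and 14994173 per library. The 2 genes with the highest counts took 1.27% to 20.9% of them, and after TMM normalisation the effective library sizes ran from 11307356 to 16138412. Values are CPM, the counts scaled by these effective sizes. All 8 embryonic stem cell markers (Pou5f1, Nanog, Sox2, Zfp42, Esrrb, Klf4, Dppa5a and Tdgf1) were above 0 in every library, with a summed level of 3882 to 4565 CPM. The summed levels were 2.57 to 4.39 CPM for 4 endoderm markers, 2.36 to 3.47 for 3 mesoderm markers, 7.46 to 11.2 for 3 neural markers and 2.56 to 5.76 for 4 fibroblast markers. In DHX35-dTAG cells the Dhx35 mRNA differed by 0.11 (log2) on dTAG-13, and in GPATCH1-dTAG cells the Gpatch1 mRNA by 0.0024; the compound acts on the protein, so these mRNAs do not check the depletion. One library, DMSO replicate 1 of the DHX35-dTAG line, was unlike the rest. It correlated with them at 0.976 on average, where each of the rest reached 0.988 to 0.990, and genes named Rnu, Snor or Scarna took 0.187% of its counts, against 0.0483% to 0.0691%.

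Per length of exon, the minor spliceosome protein genes were expressed at modest and unequal levels. Snrnp48, whose protein contacts the 5′ splice site, was the highest at 42.1 ± 3.55 CPM per kb (SD over all 8 libraries, range 38.0 to 47.2). Snrnp25 followed at 24.3 ± 2.16. Zmat5 (17.7 ± 2.55), Pdcd7 (14.6 ± 4.07), Scnm1 (14.5 ± 2.23) and Zcrb1 (13.7 ± 2.47) could not be ordered beyond their spread. Zrsr2 stood at 9.08 ± 1.20, Rnpc3 at 6.08 ± 0.692 and Snrnp35 was the lowest at 3.21 ± 1.01 CPM per kb. Snrnp35 and Snrnp70 are counterparts, both binding the first snRNA of their spliceosome, U11 or U1, and Snrnp70 stood at 136.3 ± 14.1 CPM per kb. The level of U2af1, the 3′ splice site protein related to Zrsr2, was 194.3 ± 13.3 CPM per kb. Of the 7 major spliceosome counterparts examined, only Snrpb2, at 26.4 CPM per kb, lay below Snrnp48. Lengths are the merged exons of the protein-coding transcripts of GENCODE M21, so a gene with long alternative exons is set low. Exons found only in transcripts of other types were left out of the lengths, and reads there, if counted, would set a gene high.

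**Figure D1:**
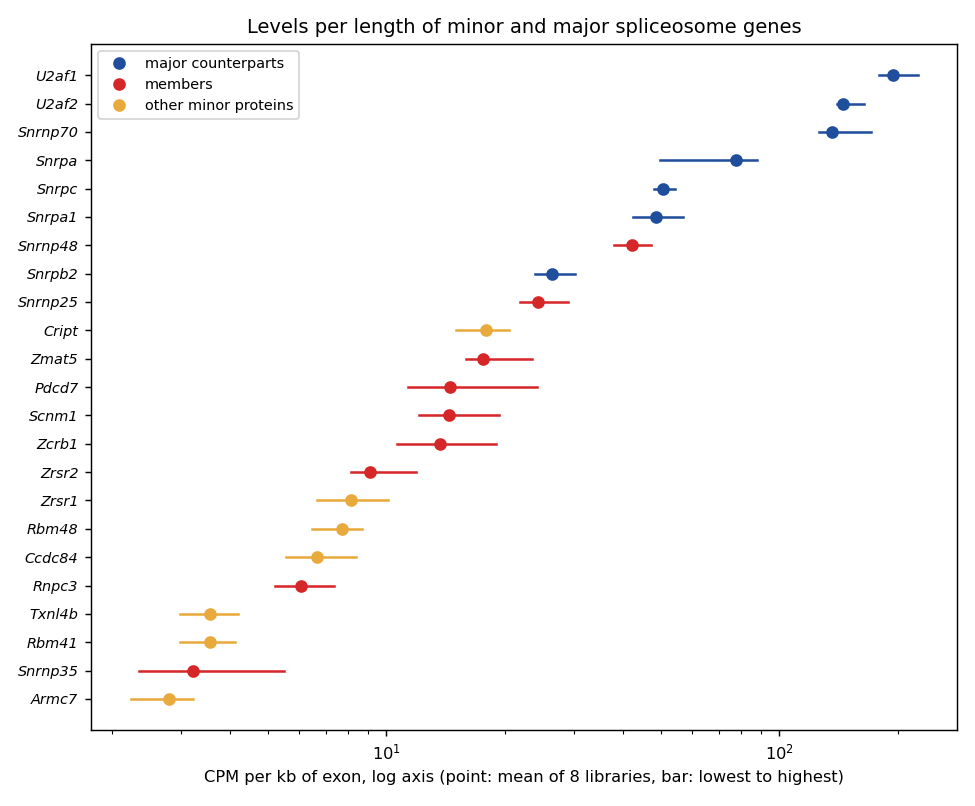
Level per length (CPM per kb of merged exon, log axis) of the 9 minor spliceosome protein genes (red), 7 other minor spliceosome genes (orange) and 7 major spliceosome counterparts (blue), with points for the mean of 8 libraries and bars from the lowest to the highest library. The red points run from 3.21 for Snrnp35 to 42.1 for Snrnp48, and 6 of the 7 blue points lie above all red ones.

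Where genes share exons or sequence, their counts can mix. Zrsr2 (X:163935443-163958661) has a close autosomal copy, Zrsr1, but none of 5924 windows of 100 bases of its transcripts occurred in Zrsr1 or any other gene. Rnpc3 (3:113605067-113630149) overlaps Amy1 on the same strand by 1633 bases, and 20.1% of its windows were also in Amy1 transcripts. Zmat5 (11:4704678-4737669) overlaps Cabp7 on the opposite strand by 778 bases, of which 338 are exonic, and 34.9% of its windows were also found in Cabp7, while the strand setting of the counting is not given in the sources used here. Values of Rnpc3 and Zmat5 are uncertain to that extent. The other genes lie at 11:32205415-32208984 (Snrnp25), 5:124483134-124491124 (Snrnp35), 13:38204938-38227665 (Snrnp48), 9:65346104-65359643 (Pdcd7), 15:93386097-93398334 (Zcrb1) and 3:95129536-95134011 (Scnm1) on GRCm38, and shared no annotated overlap with another gene.

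Depletion of GPATCH1 for 4 h gave differences with 95% confidence intervals that spanned 0 for most of the genes. Snrnp48 was the one furthest from its DMSO level relative to its error. In DMSO the Gpatch1 mRNA read 6.90 and 7.31 CPM in this line, and 23.4 and 25.6 CPM in the DHX35-dTAG line. The amount of GPATCH1 protein in DMSO was not compared between the lines here. Snrnp48 stood at 83.3 and 84.8 CPM in DMSO and at 68.2 and 70.2 CPM in dTAG-13. Both dTAG-13 libraries of this line lay below both of its DMSO libraries, as in 20.3% of all genes. They also lay below all 4 libraries of the DHX35-dTAG line, which read 72.7 and 80.5 CPM in DMSO and 70.6 and 74.9 CPM in dTAG-13. The group means in GPATCH1-dTAG cells were 84.0 ± 1.06 CPM in DMSO and 69.2 ± 1.37 in dTAG-13 (SD, n = 2), or 0.82 times the DMSO level (95% confidence interval 0.72 to 0.94). The log2 fold change was -0.28 (standard error 0.09), which ranked 100 of 16371 genes by p (0.0107), and edgeR's quasi-likelihood test gave a Benjamini-Hochberg adjusted p of 1. Fitted on the 4 libraries of this line alone, the same difference (-0.28) had an adjusted p of 0.011 and was called, among 127 of 15815 genes (0.803%). That was the only 1 of 16 alternatives that called it, and the fold change lay between -0.30 and -0.26 with each library left out.

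The reads of Snrnp48 could come from the protein-coding transcripts or from the annotated transcript that includes the tandem words shown above, and counts per gene cannot tell these apart. Rnpc3, the other gene with tandem words and the protein that joins U12 to the U11 proteins, stood at 36.2 and 29.5 CPM in DMSO and 28.0 and 30.9 CPM in dTAG-13 in the same line. These values overlapped between DMSO and dTAG-13, with a log2 difference of -0.16 (95% confidence interval -0.49 to 0.16, adjusted p of 1). With each library left out, the difference lay between -0.31 and -0.0040.

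The other U11 proteins showed small differences on GPATCH1 depletion. Snrnp35, which contacts U11 snRNA, read 3.69 and 3.89 CPM in DMSO and 3.16 and 3.53 in dTAG-13, on only 44 to 57 counts per library. Pdcd7, which links the U11 proteins to Rnpc3, read 28.3 and 30.2 CPM in DMSO and 33.0 and 30.5 in dTAG-13. Snrnp25 read 19.9 and 19.3 CPM in DMSO and 20.5 and 20.5 in dTAG-13. In all 3 genes the groups did not overlap, as in 41.8% of all genes. Snrnp35 was lower in dTAG-13 and the other genes higher. The log2 differences of -0.18, 0.12 and 0.06 had 95% confidence intervals that spanned 0, from -0.74 to 0.39, from -0.35 to 0.59 and from -0.24 to 0.37.

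The remaining genes differed as little. Zmat5, a zinc finger protein of the di-snRNP, read 12.6 and 12.9 CPM in DMSO and 13.8 and 13.3 in dTAG-13 (log2 difference 0.08). Zcrb1, an RNA-binding protein of the di-snRNP, read 11.4 and 11.9 CPM in DMSO and 11.8 and 10.7 in dTAG-13 (-0.05). Scnm1 read 12.8 and 15.5 CPM in DMSO and 15.1 and 15.1 in dTAG-13 (0.10). Of these only Zmat5 did not overlap between the groups, as in 41.8% of all genes. Zrsr2 read 49.8 and 53.8 CPM in DMSO and 49.6 and 54.2 in dTAG-13, so that both pairs spanned the same range and the log2 difference was 0.0033 (95% confidence interval -0.33 to 0.34).

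Over the 9 genes, GPATCH1 depletion gave 0 calls at an adjusted p under 0.05 (0% of all genes) and 1 gene, Snrnp48, at an unadjusted p under 0.05 (2.97% of all genes). DESeq2 also called 0. The groups did not overlap in 5 of 9 genes, against 41.8% of all genes. The median log2 fold change of the 9 genes was 0.0033, against 0.0029 over all genes.

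**Figure D2:**
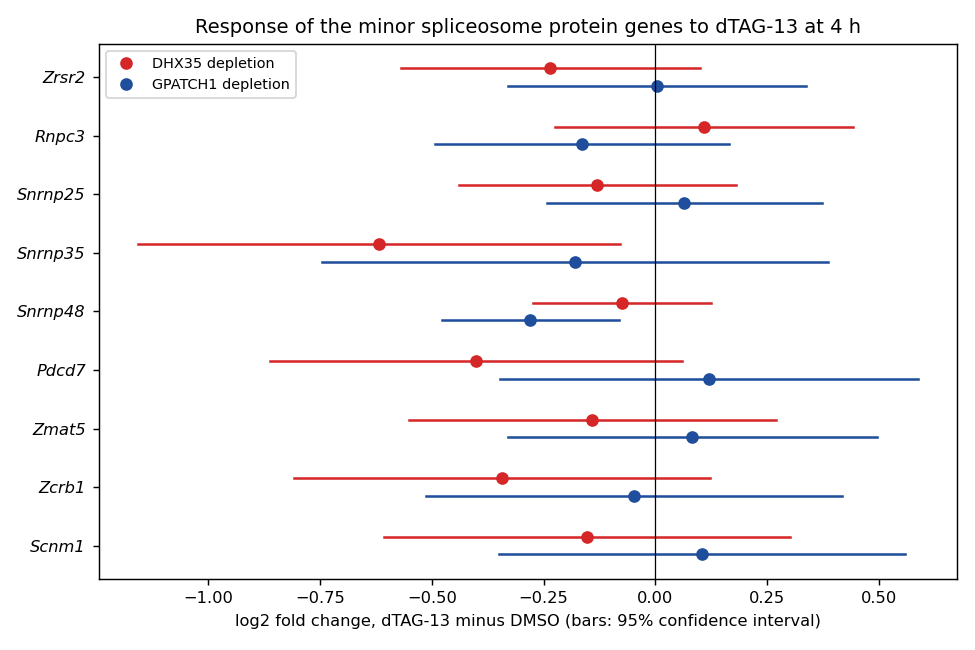
Log2 fold change (dTAG-13 minus DMSO, x axis) of each of the 9 genes in DHX35-dTAG (red) and GPATCH1-dTAG cells (blue), with bars for the 95% confidence interval. The interval lies below 0 for Snrnp35 on DHX35 depletion (-1.16 to -0.08) and for Snrnp48 on GPATCH1 depletion (-0.48 to -0.08), and spans 0 in the other 16 cases.

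Depletion of DHX35 gave lower fitted values for 8 of the 9 genes, none of which passed the test. This pattern followed 1 DMSO library. Snrnp35 stood at 7.39 and 4.95 CPM in DMSO and at 4.45 and 3.54 in dTAG-13. Both dTAG-13 libraries lay below both DMSO libraries, as in 14.1% of all genes. The DMSO libraries themselves were further apart than the closest values of the groups. The group means were 6.17 ± 1.73 and 3.99 ± 0.641 CPM (SD, n = 2), a log2 fold change of -0.62 (standard error 0.24, adjusted p = 0.715 in edgeR's quasi-likelihood test) on 40 to 100 counts per library. Without replicate 1 of the DMSO group it was -0.31, and without replicate 2 it was -0.88.

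Pdcd7 showed the widest gap between the DMSO libraries. It stood at 60.4 and 35.7 CPM in DMSO and at 36.2 and 36.4 CPM in dTAG-13. Replicate 1 of the DMSO group was 1.69 times replicate 2, and the other libraries of the line lay together. The log2 fold change of -0.40 (95% confidence interval -0.86 to 0.06, adjusted p = 0.715) became 0.02 without that library.

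The same library was the highest of its line for most of the others. Zrsr2 read 71.2 and 52.0 CPM in DMSO and 48.8 and 55.7 in dTAG-13 (log2 fold change -0.24). Snrnp25 read 24.4 and 19.4 CPM in DMSO and 21.5 and 18.5 in dTAG-13 (-0.13). Zmat5 read 18.55 and 12.6 CPM in DMSO and 15.1 and 13 in dTAG-13 (-0.14). In each of these genes replicate 1 of DMSO was the highest value of the line and the groups overlapped.

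Zcrb1 read 16.85 and 11.8 CPM in DMSO and 9.40 and 13.1 in dTAG-13 (-0.34). Scnm1 read 20.4 and 13.1 CPM in DMSO and 14.3 and 15.7 in dTAG-13 (-0.15). Their groups overlapped as well, and without replicate 1 of DMSO the Zcrb1 value was -0.07. Rnpc3 read 25.7 and 29.6 CPM in DMSO and 26.8 and 32.9 in dTAG-13 (log2 fold change 0.11, 95% confidence interval -0.23 to 0.44), and was the only gene of the 9 with a value above 0. Snrnp48, at -0.07 (95% confidence interval -0.27 to 0.12), overlapped between the groups too.

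**Figure D3:**
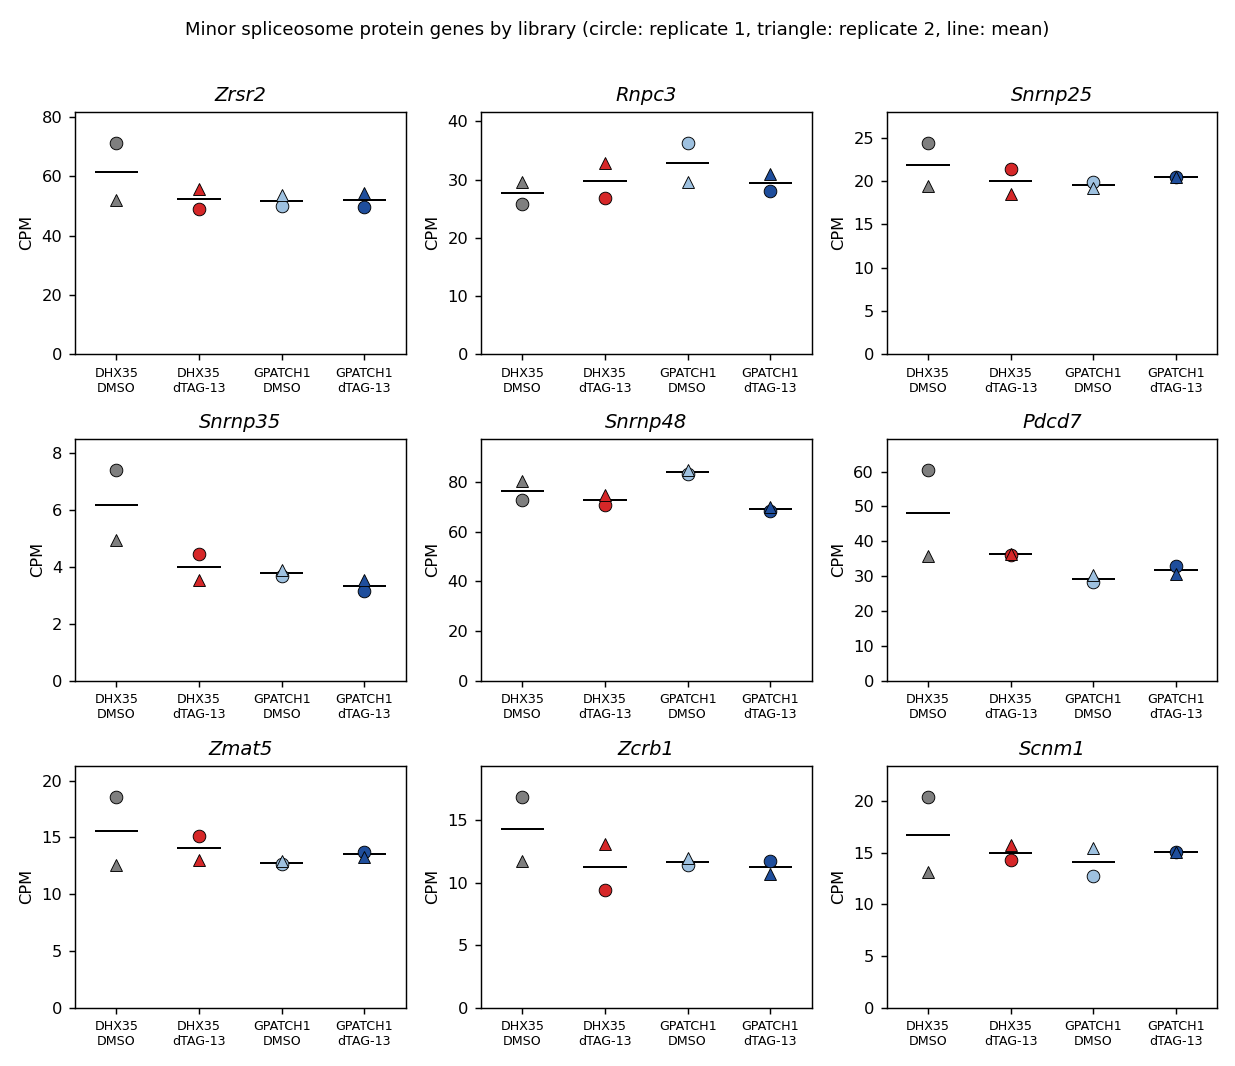
CPM of each gene in each of the 8 libraries (y axis from 0), by line and treatment, with circles for replicate 1, triangles for replicate 2 and lines for group means. The circle of the DHX35-dTAG DMSO group is the highest point in 7 of the 9 panels, and in the Snrnp48 panel both GPATCH1-dTAG dTAG-13 points lie below all other points.

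Over the 9 genes, DHX35 depletion gave 0 calls at an adjusted p under 0.05 (0% of all genes) by edgeR, and 1 gene, Snrnp35, at an unadjusted p under 0.05 (5.39% of all genes). DESeq2 called 0 of the 9, and 0.00611% of all genes. Only Snrnp35 did not overlap between the groups (28.7% of all genes). The median log2 fold change was -0.15, against -0.0077 over all genes, and 8 of 9 genes were below 0, against 51.5% of all genes. Replicate 1 of the DMSO group held the highest of the 8 values for 7 of the 9 genes, and for 30.3% of all genes. It held the lowest value for Rnpc3, and for 29.5% of all genes. The ratio of replicate 1 to replicate 2 was 1.69 for Pdcd7, 1.56 for Scnm1, 1.49 for Snrnp35, 1.47 for Zmat5, 1.43 for Zcrb1, 1.37 for Zrsr2, 1.26 for Snrnp25, 0.90 for Snrnp48 and 0.87 for Rnpc3. The summed level of the 9 genes was 317.5 CPM in this library and 243.1 to 263.8 CPM in the other 7. The part of its larger small RNA share in these values was not tested.

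The calls depended on which DMSO library of this line was kept. Without replicate 2, 6 of the 9 genes were called lower in dTAG-13, namely Snrnp35 (-0.88), Pdcd7 (-0.72), Zcrb1 (-0.58), Zrsr2 (-0.44), Scnm1 (-0.43) and Zmat5 (-0.39), while 28.8% of all genes were called and 14.6% of all genes were called lower. Without replicate 1, 0 of the 9 were called (0.0117% of all genes), and Zrsr2 (0.0080), Snrnp25 (0.04), Pdcd7 (0.02), Zmat5 (0.16), Scnm1 (0.20) and Rnpc3 (0.01) had values above 0, and Snrnp35 (-0.31), Snrnp48 (-0.14) and Zcrb1 (-0.07) below 0. In both of these fits the DMSO group had a single library, assumed to vary like the other groups.

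**Figure D4:**
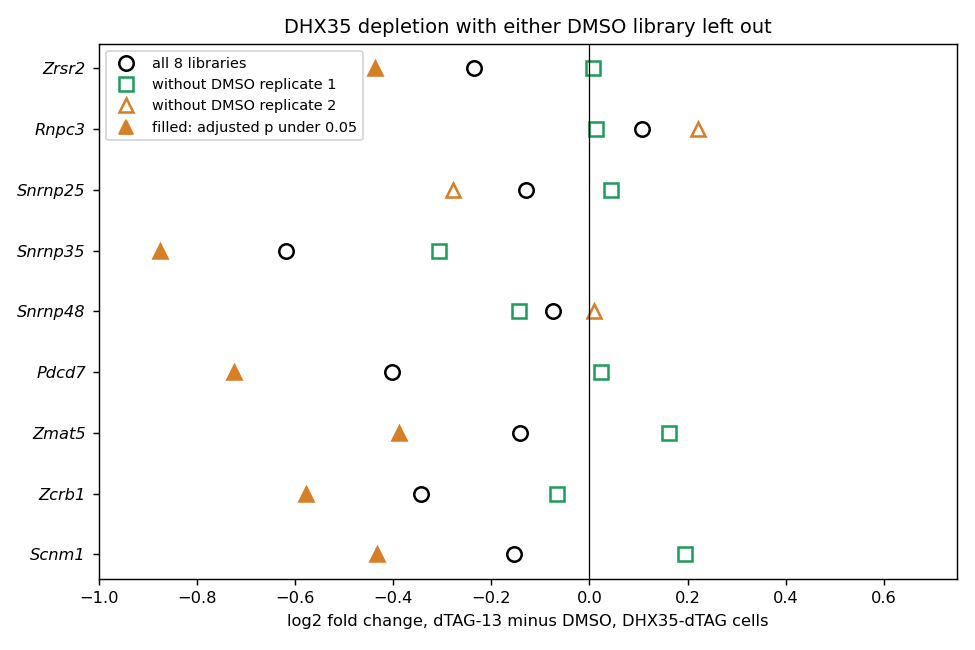
Log2 fold change on DHX35 depletion (x axis) of each of the 9 genes with all 8 libraries (black circles), without replicate 1 of the DMSO group (green squares) and without replicate 2 (orange triangles), filled where the adjusted p was under 0.05. The 6 filled points are all orange, and the green squares run from -0.31 for Snrnp35 to 0.20 for Scnm1.

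Whether the genes responded unequally to the 2 depletions was tested directly. None of the 9 was called (0% of all genes), and none had an unadjusted p under 0.05 (3.91% of all genes). DESeq2 called 0 of the 9 as well, and 0.055% of all genes. Without DMSO replicate 2 of the DHX35-dTAG line 3 genes were called, Pdcd7 (0.85), Scnm1 (0.55) and Zrsr2 (0.44), as were 20.9% of all genes. The response of Pdcd7 was 0.52 higher (log2) on GPATCH1 than on DHX35 depletion (95% confidence interval -0.14 to 1.18, adjusted p = 0.862), and 0.10 higher without DMSO replicate 1 of the DHX35-dTAG line. That of Snrnp48 was lower by a log2 difference of -0.21 (95% confidence interval -0.49 to 0.07, adjusted p = 0.862), or -0.14 without that library, so a difference between the lines in the response of Snrnp48 was not detectable with these libraries.

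Across both lines together, all 9 genes had values below 0 on dTAG-13 (51.9% of all genes), with a median of -0.12, and 0 were called (0% of all genes). Snrnp48 had a log2 fold change of -0.18 (95% confidence interval -0.33 to -0.03, adjusted p = 0.963) and Snrnp35 one of -0.41 (-0.81 to -0.01, adjusted p = 0.963). These were the 2 genes of the 9 with an unadjusted p under 0.05 (3.59% of all genes). In none of the 9 did the 4 dTAG-13 libraries and the 4 DMSO libraries separate (2.25% of all genes). These values share their libraries with the comparisons above. Without DMSO replicate 1 of the DHX35-dTAG line the median was 0.0063.

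Between the lines in DMSO, Pdcd7 was at 48.1 ± 17.4 CPM in DHX35-dTAG and 29.3 ± 1.34 CPM in GPATCH1-dTAG cells (SD, n = 2). The log2 difference was -0.71 (95% confidence interval -1.18 to -0.25) and edgeR's adjusted p was 0.336. For Snrnp35 it was -0.70 (-1.23 to -0.16, adjusted p = 0.347). None of the 9 genes was called (0.0916% of all genes), 2 had an unadjusted p under 0.05 (12.9% of all genes), and the groups did not overlap in Pdcd7, Snrnp35 and Snrnp48 (3 of 9, against 43.1% of all genes). This comparison shares the DHX35-dTAG DMSO libraries with that of DHX35 depletion. Without replicate 1 of that group, the Pdcd7 difference was -0.29 and that of Snrnp35 was -0.39. Without replicate 2 these were -1.04 and -0.96. Each of these fits leaves a single library in that group. With both treatments pooled, a fit added after seeing the data, the 4 Pdcd7 values of the DHX35-dTAG line (35.7 to 60.4 CPM) all lay above the 4 of the GPATCH1-dTAG line (28.3 to 33.0 CPM), as lines separated in 11.6% of all genes, with a log2 difference of -0.45 and an adjusted p of 0.239. That fit called 0 of the 9 genes, and 0.788% of all genes.

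The rest of the minor spliceosome was measured alongside. U12 snRNA (Rnu12) stood at 22.2 CPM in replicate 1 and 4.63 CPM in replicate 2 of DHX35-dTAG cells in DMSO, and at 3.08 and 5.22 CPM in dTAG-13. The first value stood far above the others, and the log2 fold change of -1.68 (adjusted p = 0.715) was -0.16 without that library. Of 16 alternatives, 2 called it, the fit without replicate 2 (-2.41, adjusted p = 3.3e-07) and the fit with no expression filter (-1.66, adjusted p = 1.9e-11). U11 snRNA (Rnu11) stood at 3.47 and 1.29 CPM in DMSO and 1.88 and 1.59 CPM in dTAG-13, again with the same library highest, and its log2 fold change of -0.43 was 0.43 without that library and -0.99 without replicate 2 (adjusted p = 0.018, called). In GPATCH1-dTAG cells Rnu12 read 4.66 and 3.89 CPM in DMSO and 6.63 and 3.96 CPM in dTAG-13, and Rnu11 between 1.503 and 1.87 CPM, and both overlapped between the groups. These short RNAs rest on 17 to 47 counts for Rnu11 and 36 to 300 for Rnu12, and U4atac and U6atac were not analysed here.

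**Figure D5:**
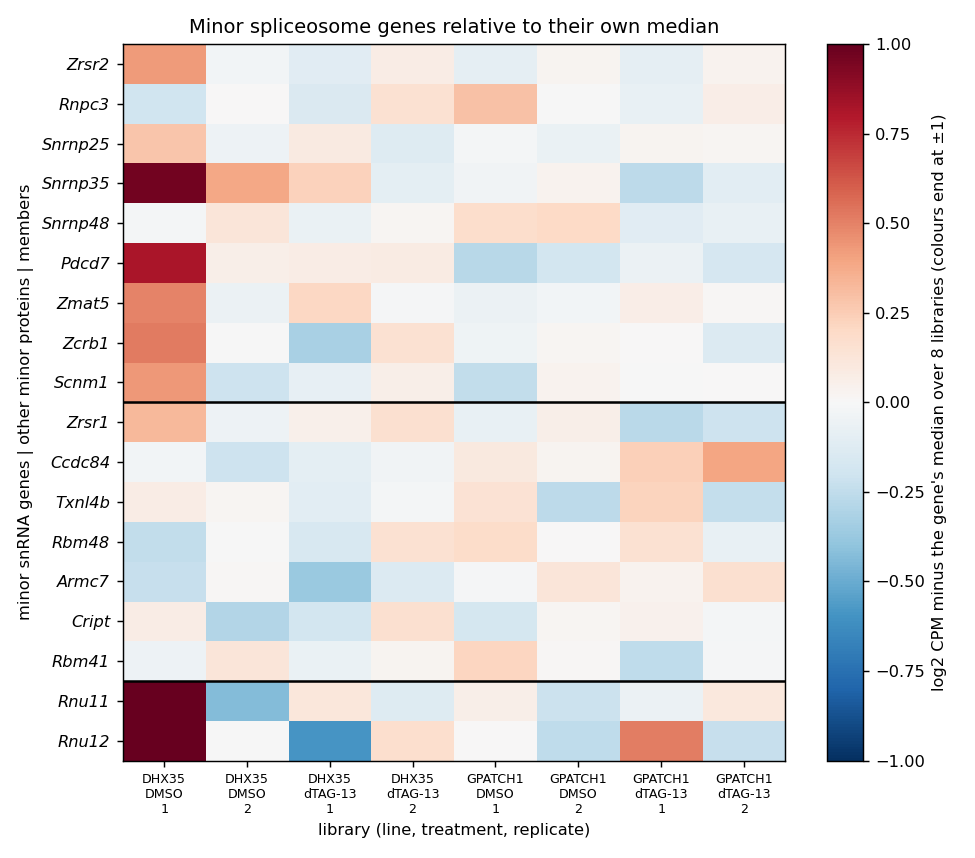
Log2 CPM minus the median of the gene over the 8 libraries (colour, ending at 1 on either side) for the 9 genes (top block), 7 other minor spliceosome genes (middle) and the U11 and U12 snRNA genes (bottom), with 1 column per library. The first column, DMSO replicate 1 of the DHX35-dTAG line, is red for 7 of the 9 genes and for both snRNA genes, which read 3.47 CPM (Rnu11) and 22.2 CPM (Rnu12) there.

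Of 7 other minor spliceosome genes (Zrsr1, Ccdc84, Txnl4b, Rbm48, Armc7, Cript and Rbm41), 0 were called in either depletion, with a median log2 fold change of -0.04 on DHX35 and 0.05 on GPATCH1 depletion. Zrsr1, the autosomal copy of Zrsr2, read 45.4 and 34.8 CPM in DMSO and 37.5 and 40.3 in dTAG-13 in DHX35-dTAG cells, and 34.4 and 37.6 CPM in DMSO and 29.99 and 31.3 in dTAG-13 in GPATCH1-dTAG cells. Its dTAG-13 values were the lower pair in the second line, with a log2 difference of -0.23 (95% confidence interval -0.53 to 0.07, adjusted p of 1), and overlapped the DMSO values in the first. The difference between the responses was called for 0 of these 7 genes (0% of all genes). For Zrsr1 it lay between -0.39 and -0.02 in the alternative fits. Summing Zrsr2 and Zrsr1 gave -0.09 for GPATCH1 depletion. Among these 7 the smallest p was that of Armc7 on DHX35 depletion (-0.15, adjusted p = 0.804) and that of Ccdc84 on GPATCH1 depletion (0.25, 95% confidence interval -0.0025 to 0.50, adjusted p of 1). Of the 7 major spliceosome counterparts, 0 were called and the medians were -0.12 and 0.0051. Snrnp70 had log2 fold changes of -0.17 and -0.07, and U2af1 of -0.16 and 0.0049.

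Genes that hold U12-type introns are what the minor spliceosome acts on. Of 13 such genes listed from general knowledge (E2F factors, MAP kinases, Parp1, Lztr1, Scn8a and Cacna1a), 0 were called in either depletion, and the median log2 fold change was -0.02 on DHX35 and -0.0047 on GPATCH1 depletion. E2f3, a cell cycle transcription factor, had the smallest p of these 13 on GPATCH1 depletion. The list was chosen with earlier results of these data known, so its rank is a description. It stood at 66.3 and 63.7 CPM in DMSO and at 47.3 and 47.2 CPM in dTAG-13. Both dTAG-13 libraries lay below all other libraries, since the 4 DHX35-dTAG libraries read 64.4 to 66.6 CPM. The share of all genes with this pattern was not computed. The log2 fold change was -0.46 (95% confidence interval -0.65 to -0.27), ranked 4 of 16371 by p, with an adjusted p of 1. The response of E2f3 on DHX35 depletion was 0.02, and the difference between the responses was -0.48 (95% confidence interval -0.74 to -0.22, adjusted p = 0.862). Of 15 alternatives, 1 called this difference, the fit without DMSO replicate 2 of the DHX35-dTAG line (-0.51, adjusted p = 0.0019). Of 16 alternatives, 4 called E2f3 on GPATCH1 depletion, among them the fit of the 4 libraries of that line (adjusted p = 0.00023) and the fit without DMSO replicate 1 of the DHX35-dTAG line (adjusted p = 0.0034, with 0.299% of all genes called). Whether its U12-type intron was retained cannot be read from counts per gene.

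How the 9 genes moved together over the libraries rested on the same DMSO library. Of the 36 pairs, 24 had a positive correlation of log2 CPM over the 8 libraries, with a median of 0.59, and 17 had one over the 7 without that library, with a median of -0.03. The highest was between Snrnp25 and Zmat5 (0.94, and 0.78 without it) and the lowest between Rnpc3 and Zmat5 (-0.75, and -0.71 without it). Without that library the lowest pair was Snrnp25 and Zcrb1, which went from 0.42 to -0.91, and Zmat5 with Zcrb1 went from 0.54 to -0.74 and Zrsr2 with Snrnp25 from 0.62 to -0.74. The points of each pair share their libraries and depth. In bulk RNA, fewer cells of a kind and less RNA per cell cannot be told apart for any of these values.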

How the data were processed

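The authors depleted ribosomal RNA, added human DLD-1 RNA as a spike-in, made stranded libraries, trimmed reads with Trim Galore 0.6.6 and aligned them with STAR 2.7.5c to mm10 and hg19. The submitters' processing notes also list FastQC 0.11.9 and DESeq2 1.26.0. For each library, the authors deposited a table of unnormalised read counts by gene symbol. The counting program, annotation and strand setting are not given in the sources used here. Groups were taken from the sample labels.

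From these counts, edgeR 4.0.16 (R 4.3.3) fitted 1 term per group over all 8 libraries after TMM scaling and filterByExpr (16371 genes), with glmQLFit, glmQLFTest and Benjamini-Hochberg adjustment over all genes, at a threshold of 0.05. Standard errors were derived from F, as the size of the log2 fold change over its square root. At the common dispersion (0.0125), replicates varied by 11.2%. Replicates were not duplicates (median chi-square per gene 0.807 to 4.92, against 0.455 for sampling noise alone). The members and the gene lists were chosen with earlier results of these data known. Named were all 9 genes, the gene of smallest p in each list, and single counterparts. The scripts were tested on simulated data. Alternatives were DESeq2 1.42.0, its size factors, other count filters, a replicate block, only the libraries compared, removal of the 2 highest genes, limma-voom (limma 3.58.1) with quality weights, Zrsr2 and Zrsr1 summed, and each library left out. A list of U12-type introns from the genome sequence was not made here, and some genes with U12-type introns are not reported here.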

Additional observations from a re-analysis of the deposited data

Results flagged for a closer look

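Dixon's test was run on 18 sets of 4 libraries, each set being 1 gene in the 4 DMSO or the 4 dTAG-13 libraries. In 3 of these sets a single library lay far from the rest. Chance alone gives this in about 5% of independent sets, but the 18 sets share their libraries. The share of all genes flagged by this test was not computed, so an excess in these genes was not tested. All 3 flagged values were from DMSO replicate 1 of the DHX35-dTAG line among the 4 DMSO libraries. Of all libraries, this one held the highest value for 30.3% of all genes and the lowest for 29.5%. Snrnp25 read 24.4 CPM there and 19.3 to 19.9 CPM in the others. Zmat5 read 18.55 CPM against 12.6 to 12.9. Zcrb1 read 16.8 CPM against 11.4 to 11.9. This is the library with 0.187% of its counts on genes named Rnu, Snor or Scarna, and the part of that in these values was not tested.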

How the results depend on the processing

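The labels do not say whether the replicate numbers pair the samples. The correlations of same-numbered libraries' deviations ran from 0.037 to 0.23, low but all above 0, which cannot decide it. With a replicate block, 0 of the 9 genes were called in any comparison, and of all genes 0.0122% for the difference of the responses, 0.0977% for the lines compared in DMSO and 0% in the others. Under the block the median log2 fold change was -0.15 (DHX35 depletion), 0.0035 (GPATCH1 depletion), 0.24 (difference of the responses), -0.12 (both lines pooled) and -0.25 (lines compared in DMSO).

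With each library left out, the number of genes called ran from 0 to 6 for DHX35 depletion, 0 to 0 for GPATCH1 depletion, 0 to 3 for the difference of the responses, 0 to 0 for the pooled lines and 0 to 8 for the lines compared in DMSO. The medians ran from -0.434 to 0.0127, -0.0356 to 0.0561, -0.00272 to 0.473, -0.166 to 0.00632 and -0.525 to 0.0148 in the same order. The genes that did not overlap numbered 1 to 8 (DHX35), 5 to 7 (GPATCH1), 0 to 2 (pooled) and 3 to 9 (lines), and the share of all genes was 28.9% to 81.6%, 41.0% to 73.5%, 3.62% to 5.55% and 42.7% to 87.5%, highest where a group had a single library in all but the pooled lines. The upper counts of calls all came from leaving out DMSO replicate 2 of the DHX35-dTAG line, where 20.9% of all genes were called for the difference and 34.3% for the lines. Single genes changed sign in these fits. On DHX35 depletion the ranges were -0.437 to 0.00803 (Zrsr2), -0.0438 to 0.250 (Rnpc3), -0.278 to 0.0435 (Snrnp25), -0.144 to 0.00998 (Snrnp48), -0.725 to 0.0238 (Pdcd7), -0.388 to 0.162 (Zmat5) and -0.434 to 0.195 (Scnm1). On GPATCH1 depletion they were -0.0619 to 0.0673 (Zrsr2), -0.117 to 0.0149 (Zcrb1) and -0.0356 to 0.238 (Scnm1). For the lines they were -0.305 to 0.0148 (Snrnp25), -0.531 to 0.0178 (Zmat5) and -0.537 to 0.0911 (Scnm1).

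Of the other alternatives, fitting only the libraries compared called 1 gene on GPATCH1 depletion (Snrnp48). Without an expression filter 1 was called for the lines (Pdcd7, -0.69, adjusted p = 8.0e-05, with 3.02% of all genes called), and the cause was not tested. The GPATCH1 value of Zrsr2 was -0.0025 without the 2 highest genes and -0.0882 summed with Zrsr1. Of 444 single-gene values under alternatives for DHX35 depletion, GPATCH1 depletion and the lines in DMSO, 410 kept direction and side of the threshold, 16 passed it newly and 18 changed sign. Fitting only the libraries compared gave no value for the difference or the pooled lines. With 2 libraries a group, and 40 to 100 counts for Snrnp35, small differences were not detectable.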

Other observations

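The SF3b complex, which recognises the branch site in both spliceosomes, had 0 of 7 genes called in either depletion. The median log2 fold change was -0.05 on DHX35 and 0.07 on GPATCH1 depletion, and the smallest p was that of Sf3b4 (0.15, adjusted p = 0.715 by edgeR) and of Sf3b3 (0.14, adjusted p of 1). Among the 13 genes with U12-type introns, E2f4 had the smallest p on DHX35 depletion (0.17, 95% confidence interval -0.0079 to 0.35, adjusted p = 0.715), and among the major spliceosome counterparts Snrpa (0.40, 95% confidence interval -0.00079 to 0.81, adjusted p = 0.715). Snrpa read 77.8 and 123.9 CPM in DMSO and 137.2 and 129.9 CPM in dTAG-13 in that line. Its value was 0.11 without replicate 1 of DMSO, 0.79 without replicate 2 (adjusted p = 1.5e-06) and 0.41 with no expression filter (adjusted p = 0.036), and the last 2 of these were called.

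The genes whose log2 CPM followed the mean of the 9 most closely over the 8 libraries were D930007J09Rik (r = 0.995), Fam25c (0.994) and Atp5mpl (0.992). Leaving out DMSO replicate 1 of the DHX35-dTAG line, these were 0.882, 0.844 and 0.813. The mRNA of Gpatch1 stood at 23.2 to 25.6 CPM in the 4 DHX35-dTAG libraries and at 6.90 to 7.31 CPM in the 4 GPATCH1-dTAG libraries.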
